A study of Mus musculus with 44 samples.

Results

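The family of miR-204 and miR-211 was followed in mouse hypothalamus, which controls appetite and energy balance, through its 3 named rows of the deposited miRNA table: mmu-miR-204-5p, mmu-miR-204-3p and mmu-miR-211-5p. They were chosen by name, as 3 of the 1978 mature miRNAs listed, and all 3 had counts in each of the 44 libraries. The libraries came from C57Bl/6J mice. The AM132 group (16 libraries) was made obese by 11 weeks of high-fat diet and then received a 16-nt locked nucleic acid (LNA) oligonucleotide against miR-132. The AM608 group (16 libraries) was obese by the same diet and received a 15-nt LNA oligonucleotide against the primate miR-608, the control. Both were injected intravenously at 3.3 mg/kg on 3 days and killed 7 days later. The RCD group (12 libraries) was of matched age on regular chow and has no injection in its labels, so a comparison with it cannot tell obesity from injection. The labels name 4 batches without saying what a batch is. AM132 and AM608 had 4 libraries each in batch 1, 8 each in batch 2 and 4 each in batch 3, and RCD had 4 libraries in batch 2 and 8 in batch 4.

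Mature miRNAs are short RNAs that pair, mainly through the seed at bases 2 to 8, with messenger RNAs and lower their output. A hairpin precursor yields a 5p and a 3p arm, and usually only 1 of these accumulates. In mice miR-204 is processed from an intron of Trpm3, which encodes a cation channel, and it is among the defining miRNAs of the choroid plexus, the epithelium that secretes cerebrospinal fluid into the ventricles. It is also abundant in the retinal pigment epithelium. Its paralogue miR-211 comes from an intron of Trpm1 and is best known from pigment cells.

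The sequences show how little separates the members. They are given 5′ to 3′ as RefSeq lists them for GRCm38.p6, with the seed in capitals, and mmu-miR-211-3p, the other arm of the Mir211 hairpin, is added for comparison.
mmu-miR-204-5p: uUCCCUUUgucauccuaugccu
mmu-miR-211-5p: uUCCCUUUgucauccuuugccu
mmu-miR-204-3p: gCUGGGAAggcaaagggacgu
mmu-miR-211-3p: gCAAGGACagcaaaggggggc
The 5p arms shared the seed UCCCUUU and 21 of 22 bases, and the substitution from miR-204-5p to miR-211-5p was A17U, counted from the 5′ end. How reads were divided between 2 miRNAs that are 1 base apart is not given in the sources used here. Among 1679 mature names of RefSeq the seed UCCCUUU was found in 1 further miRNA, miR-7670-3p, which had 3 counts over the 44 libraries. The miR-204-3p seed CUGGGAA was shared with miR-7684-5p alone, which had 0 counts. The 3p arms of the 2 hairpins were less alike, with 14 of 21 bases identical.

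The hairpins place these arms in the genome, and the mature arms are in capitals.
Mir204 hairpin: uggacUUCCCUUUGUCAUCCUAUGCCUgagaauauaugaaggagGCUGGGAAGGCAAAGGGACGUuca
Mir211 hairpin: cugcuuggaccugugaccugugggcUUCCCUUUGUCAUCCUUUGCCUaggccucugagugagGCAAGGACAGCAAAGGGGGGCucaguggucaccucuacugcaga
The Mir204 hairpin of 68 nt lies at chr19:22750605-22750672 on the plus strand (GRCm38), inside Trpm3 (chr19:22139046-22995410), and overlaps no exon other than its own in GENCODE vM21. The Mir211 hairpin of 106 nt lies at chr7:64205806-64205911 on the plus strand, inside Trpm1 (chr7:64153835-64269775), and likewise overlaps no other exon. Both are therefore intronic by this annotation. The mature 5p arms span chr19:22750610-22750631 and chr7:64205831-64205852, and the miR-204-3p arm spans chr19:22750649-22750669.

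The miRNA counts summed to between 3020192 and 5997234 per library (median 3996734). Levels are given below as CPM (counts per 1000000 miRNA counts), scaled by the trimmed mean of M values (TMM) over the 44 libraries. Changes come from edgeR's quasi-likelihood F test with Benjamini-Hochberg adjustment over all miRNAs tested, at 0.05. The labels do not say that the samples of a group were separate mice, so p-values measure the spread between libraries. The oligonucleotide's target, miR-132-3p, differed by -0.46 ± 0.16 (log2, SE) in AM132 against AM608 and did not pass (edgeR adjusted p = 0.593). Every library is labelled hypothalamus, and none is labelled choroid plexus. The 9 neuronal miRNAs listed as markers summed to between 127400 and 428300 CPM per library. The 10 miRNAs hosted by Htr2c, a serotonin receptor gene abundant in choroid plexus and also used by hypothalamic neurons, summed to between 479 and 5087 CPM, with none of the 10 at 0 throughout. In bulk tissue, fewer cells of a type and less RNA per cell cannot be told apart.

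The 3 members differed widely in abundance. miR-204-5p averaged 2561 CPM, which placed it 57th of the 1978 rows, between let-7e-5p at 2571 CPM and miR-382-5p at 2550 CPM, and it held 0.259% of all miRNA counts (470253 counts). miR-204-3p, cut from the same precursor, averaged 40.9 CPM and ranked 289th (7446 counts). miR-211-5p averaged 3.52 CPM and ranked 514th (641 counts), with at most 28 counts in a library. miR-211-3p had 7 counts in 44 libraries and was not analysed further.

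miR-204-5p was highest on average in batch 2 and lowest in the AM132 libraries of batch 3. In batch 1 its CPM was 1912, 2140, 1987 and 2179 in AM132 libraries, and 1947, 1811, 2366 and 2362 in AM608 libraries. Batch 2 ran from 2578 to 3194 CPM (median 2651) in AM132 libraries, from 2597 to 3066 CPM (median 2908) in AM608 libraries, and stood at 2824, 2759, 3123 and 2948 CPM in RCD libraries. In batch 3 it was 1604, 2350, 1736 and 1583 CPM in AM132 libraries and 2445, 2946, 2407 and 2566 CPM in AM608 libraries. Batch 3 was the only batch where the 2 injected groups did not overlap. The 8 RCD libraries of batch 4 held both the lowest value of the series, 1463 CPM in RCD 4, and the 2 highest, 6815 CPM in RCD 2 and 4018 CPM in RCD 5.

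Ordered by mean, miR-204-5p ran from 1818 ± 361 CPM (SD, n = 4) in AM132 of batch 3 through 2055 ± 126 (n = 4) and 2121 ± 285 CPM (n = 4) in AM132 and AM608 of batch 1 to 2591 ± 246 CPM (n = 4) in AM608 of batch 3. Above these stood RCD of batch 4 at 2724 ± 1850 CPM (n = 8), AM132 of batch 2 at 2750 ± 213 CPM (n = 8), AM608 of batch 2 at 2864 ± 161 CPM (n = 8) and RCD of batch 2 at 2913 ± 160 CPM (n = 4). Of the neighbours in that order, only AM608 of batch 3 and AM608 of batch 1 had means further apart than the larger SD of the pair. The range of miR-204-3p was 15.9 CPM in AM132 13 to 98.5 CPM in RCD 2, and its group means ran from 27.9 ± 8.88 CPM (n = 4) in AM132 of batch 3 to 47.6 ± 3.52 CPM (n = 8) in AM608 of batch 2. miR-211-5p ran from 0.791 CPM in AM132 15 to 6.93 CPM in AM608 3, with group means between 2.86 ± 1.58 CPM (n = 4) in AM132 of batch 3 and 4.67 ± 0.542 CPM (n = 4) in AM608 of batch 3. For both of these miRNAs, neighbouring group means all lay within the larger SD of the pair.

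**Figure D1:**
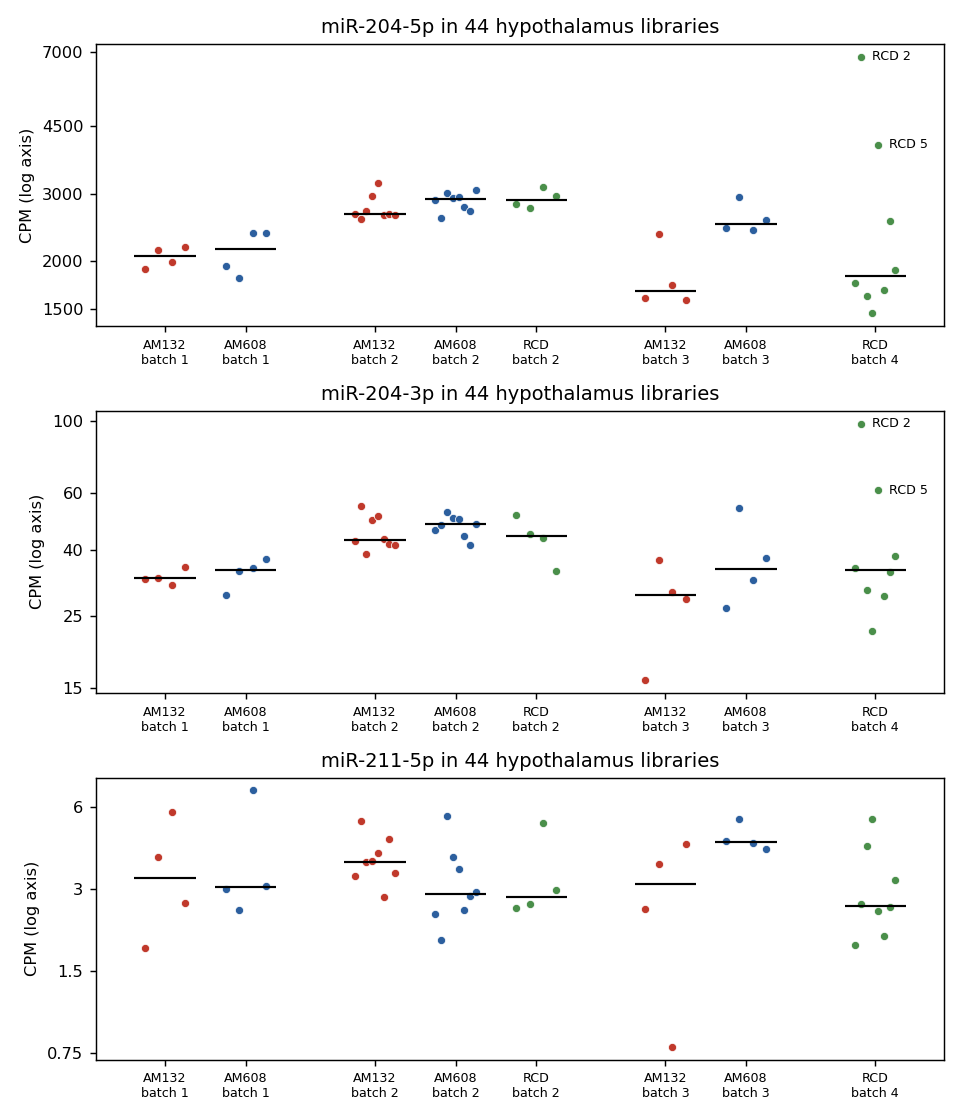
CPM (log axis) of miR-204-5p, miR-204-3p and miR-211-5p in each of the 44 libraries, by group within batch, with a horizontal line at each group's median. RCD 2 and RCD 5 of batch 4 hold the 2 highest values of miR-204-5p (6815 and 4018 CPM) and of miR-204-3p, and not of miR-211-5p.

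Depth set a different limit for each member. The 95% Wilson interval of miR-204-5p in RCD 2 (25739 counts, 6071 CPM before TMM scaling) was 5997 to 6145 CPM. For miR-211-5p the 3 counts of AM132 15 gave 0.705 CPM with an interval of 0.24 to 2.07, and the 28 counts of RCD 4 gave 5.19 CPM with an interval of 3.59 to 7.5. Such intervals cover counting error alone, because reads that carry no molecular identifier may be copies of 1 molecule. At the median count, counting alone gives an SD of 0.015 (log2) for miR-204-5p, 0.12 for miR-204-3p and 0.42 for miR-211-5p. The SD between libraries of a group within a batch was 0.36, 0.37 and 0.48 in the same order, so most of the spread of miR-211-5p was of the size of counting error. The median SD over the 407 miRNAs of at least 10 CPM was 0.2, and 63 of them varied more than miR-204-5p.

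The 3p arm was a small and fairly steady share of the Mir204 reads. Over all libraries it made up 1.56% of the reads of both arms, with 63.2 reads of miR-204-5p for each read of miR-204-3p. Of 323 hairpins with both arms in the table and at least 440 counts, 129 had a smaller share in the minor arm, and the median minor share was 3.01%. By library the log2 ratio of miR-204-5p to miR-204-3p ran from 5.56 in AM132 6 to 6.64 in AM132 13, with a mean of 5.97 ± 0.21 (SD, n = 44). In RCD 2 and RCD 5, where both arms were highest, the 5p arm had 69.2 and 65.5 reads per 3p read, close to the pooled value.

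miR-211-5p was a far smaller part of the reads with the shared seed. There were 734 reads of miR-204-5p for each read of miR-211-5p, so miR-211-5p made up 0.136% of both. The log2 ratio of miR-211-5p to miR-204-5p averaged -9.49 ± 0.64 (SD, n = 44) and ran from -11.26 in RCD 2 to -8.05 in RCD 4. These are the libraries with the highest and the lowest miR-204-5p level. Between them miR-211-5p was at 2.65 CPM in RCD 2 and at 5.44 CPM in RCD 4, while miR-204-5p was at 6815 CPM in RCD 2 and at 1463 CPM in RCD 4.

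**Figure D2:**
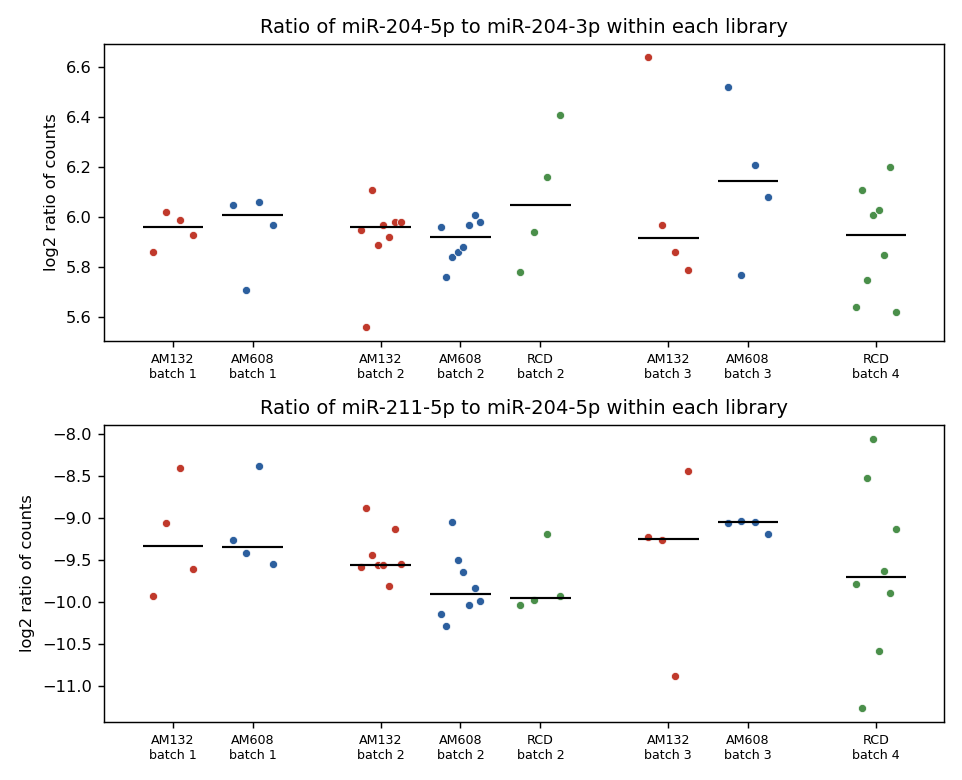
Log2 ratio of counts within each library, miR-204-5p to miR-204-3p in the upper panel and miR-211-5p to miR-204-5p in the lower panel, by group within batch, with lines at group medians. The arm ratio stays between 5.56 and 6.64, while the ratio of the paralogues runs from -11.26 in RCD 2 to -8.05 in RCD 4.

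The first comparison asks whether the oligonucleotide against miR-132 went with another level of the family in obese mice. None of the 3 members passed the test over the 16 AM132 and 16 AM608 libraries with batch as a term. The log2 fold change was -0.16 ± 0.06 (SE) for miR-204-5p (edgeR adjusted p = 0.68), -0.14 ± 0.09 for miR-204-3p (adjusted p = 0.94) and -0.06 ± 0.18 for miR-211-5p (adjusted p = 0.99). Of 559 miRNAs tested, 2 were called (0.358%), 1 higher and 1 lower in AM132 (0.179% each), while 23 had an unadjusted p under 0.05, and DESeq2 also called 2. None of the 7 tested Htr2c-hosted miRNAs was called (median log2 fold change -0.03, against 0 over all tested miRNAs). Of the 5 tested miR-34/449 miRNAs, which mark ciliated cells such as those lining the ventricles, 1 rose, miR-34c-3p at 0.91 ± 0.16 (edgeR adjusted p = 0.00169). Neither ratio within a library differed by the test. The mean log2 ratio of the Mir204 arms was 5.96 ± 0.22 (SD) in the 16 AM132 libraries and 5.98 ± 0.2 in the 16 AM608 libraries, which is -0.01 apart (2-sided permutation within batch, p = 0.857, adjusted over 10 ratio tests 0.893). The mean log2 ratio of miR-211-5p to miR-204-5p was -9.39 ± 0.59 (SD) in AM132 libraries against -9.46 ± 0.51 in AM608 libraries (permutation p = 0.736, adjusted 0.893).

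Within batches the difference in miR-204-5p was uneven. In batch 1 the mean log2 CPM was 11.0 ± 0.09 (SD, n = 4) in AM132 libraries, against 11.04 ± 0.2 (n = 4) in AM608 libraries (2-sided exact permutation p = 0.686). In batch 2 it was 11.42 ± 0.11 in AM132 libraries, against 11.48 ± 0.08 in AM608 libraries (n = 8 each, exact p = 0.225). In batch 3 it was 10.81 ± 0.27 in AM132 libraries, against 11.33 ± 0.13 in AM608 libraries (n = 4 each), a difference of -0.53 with no overlap between the groups. The exact p of 0.0286 is the smallest that 4 against 4 libraries allow, and it came to 0.0858 after adjustment over the 3 batches. In that batch 1.61% of the 559 tested miRNAs were lower in AM132 without overlap. A fit of batch 3 alone gave -0.51 for miR-204-5p with an edgeR adjusted p of 0.768. The difference between batches was tested as an interaction over all 559 miRNAs, and none was called (0%). miR-204-5p had an unadjusted p of 0.00131 there and an adjusted p of 0.273, in edgeR's test.

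The other members in batch 3 pointed the same way without separating. miR-204-3p differed by -0.44 (log2, exact p = 0.257), at 15.9, 37.3, 29.8 and 28.4 CPM in AM132 libraries against 26.6, 54, 32.5 and 37.8 CPM in AM608 libraries. miR-211-5p differed by -0.78 (exact p = 0.0571), at 2.55, 3.71, 0.791 and 4.41 CPM in AM132 libraries against 4.51, 5.46, 4.46 and 4.23 CPM in AM608 libraries. AM132 15, with 3 counts, had the lowest of these values. Beside them in batch 3, the Htr2c-hosted miRNAs summed to between 479 and 1065 CPM (median 733) in AM132 libraries and between 805 and 971 CPM (median 860) in AM608 libraries. The miR-34/449 miRNAs summed to between 115 and 262 CPM in AM132 libraries and between 107 and 165 CPM in AM608 libraries, the opposite direction by median (166 and 117 CPM). The part of these lists in the miR-204-5p values was not tested.

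Against lean chow mice, within batch 2, no member passed the test in either obese group. The 2 comparisons share the same 4 RCD libraries. AM608 minus RCD gave log2 fold changes of -0.01 ± 0.06 (SE) for miR-204-5p, 0.15 ± 0.10 for miR-204-3p and -0.06 ± 0.24 for miR-211-5p (edgeR adjusted p = 0.985, 0.799 and 0.985). AM132 minus RCD gave -0.05 ± 0.06, 0.10 ± 0.10 and 0.21 ± 0.24 in the same order (edgeR adjusted p = 0.806, 0.791 and 0.806). Of 599 miRNAs tested by edgeR, 0 were called in either comparison (0%), and DESeq2 called 0 in each. An unadjusted p under 0.05 was found for 30 in AM608 against RCD and for 59 in AM132 against RCD.

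By library, miR-204-3p in batch 2 was between 39.1 and 54.7 CPM (median 43) in AM132, between 41.7 and 52.7 CPM (median 48.1) in AM608, and 51.4, 44.9, 43.6 and 34.5 CPM in RCD. miR-211-5p was between 2.82 and 5.36 CPM (median 3.79) in AM132, between 1.95 and 5.6 CPM (median 2.88) in AM608, and 2.57, 2.64, 5.24 and 2.98 CPM in RCD. The groups overlapped for all 3 members. The ratio of miR-211-5p to miR-204-5p averaged -9.44 ± 0.3 (log2, SD, n = 8) in AM132 and -9.78 ± 0.39 (n = 4) in RCD, a difference of 0.34 (exact permutation p = 0.105, adjusted over 10 tests 0.43). RCD 11 moved that value most. Its ratio, -9.19, was the highest of the 4 RCD libraries. Without it the difference was 0.53, with an unadjusted exact permutation p under 0.05. No other of the 7 alternatives for this ratio passed, and that p was not adjusted over the 10 tests.

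**Figure D3:**
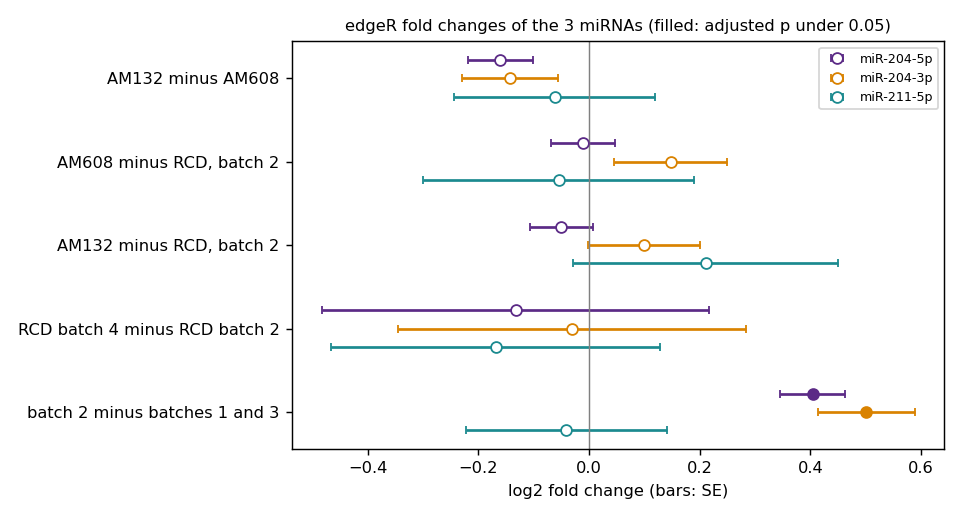
Log2 fold changes of the 3 members by edgeR in the 5 comparisons, with bars of 1 SE and filled points where the adjusted p is under 0.05. Only the comparison of batch 2 with batches 1 and 3 has filled points, for miR-204-5p (0.40) and miR-204-3p (0.50), and the widest bars are those of the RCD libraries of batch 4 against batch 2.

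The largest called differences of the Mir204 arms were between batches of the same injected groups. Batch 2 minus the mean of batches 1 and 3 gave a log2 fold change of 0.40 ± 0.06 (SE) for miR-204-5p (edgeR adjusted p = 2.69e-07) and 0.50 ± 0.09 for miR-204-3p (adjusted p = 6.36e-06). miR-211-5p gave -0.04 ± 0.18 and did not pass (adjusted p = 0.851). In batch 2 miR-204-5p averaged 2807 ± 191 CPM, against 2146 ± 376 CPM in batches 1 and 3 (SD, n = 16 each). The size of this difference depends on the scaling. TMM factors were 0.9634 to 1.2411 in these batch 2 libraries and 0.8254 to 0.9637 in those of batches 1 and 3. Before scaling, miR-204-5p held 0.248% to 0.348% of the miRNA counts in batch 2 and 0.131% to 0.249% in batches 1 and 3. miR-204-3p averaged 46.6 ± 4.61 CPM in batch 2 and 33.2 ± 7.73 CPM in batches 1 and 3. The difference held in each injected group alone, at 0.52 and 0.59 in AM132 libraries (edgeR adjusted p = 4.36e-05 and 0.00113) and at 0.27 and 0.39 in AM608 libraries (edgeR adjusted p = 0.000806 and 0.0061), for the 5p and the 3p arm in turn. Among AM132 libraries the batches did not overlap for miR-204-5p, at 2578 CPM or more in batch 2 and 2350 CPM or less in batches 1 and 3. The same held, higher in batch 2 without overlap, for 12.5% of tested miRNAs. Those lower without overlap were not counted. Among AM608 libraries they overlapped, at 2597 CPM or more in batch 2 and up to 2946 CPM in batches 1 and 3.

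Batch 2 differed in most of the profile, so 2 called members of 3 do not set the family apart. Of 559 miRNAs tested 406 were called (72.6%), with 36.5% higher and 36.1% lower in batch 2, and the median log2 fold change over all of them was 0.01. Several marker lists had larger medians than the members' values. Of the tested neuronal miRNAs, led by miR-9-5p at a mean of 112400 CPM and miR-128-3p at 112200 CPM, 7 of 9 fell (median -1.08). Of the miRNAs listed for vessels, led by miR-126a-3p (15760 CPM) and miR-143-3p (6746 CPM), 4 of 4 fell (median -0.57). Of the pituitary and epithelial miRNAs, led by miR-7a-5p (64250 CPM) and miR-7b-5p (15350 CPM), 7 of 8 rose (median 3.41). Of the miR-34/449 miRNAs, led by miR-34c-5p (727 CPM) and miR-34b-3p (78 CPM), 4 of 5 rose (median 3.25). The Htr2c-hosted miRNAs, led by miR-1298-5p (561 CPM) and miR-1264-3p (229 CPM), were split, with 2 of 7 higher and 3 of 7 lower (median -0.24). Of 3 tested miRNAs each, 1 rose in the pineal and retinal list (led by miR-183-5p and miR-182-5p, at 88 and 80.4 CPM), none was called in the muscle list (miR-1a-3p and miR-133a-3p, at 345 and 24.1 CPM), and 1 fell in the erythroid list (miR-451a and miR-486a-5p, at 459 and 229 CPM). The part of these lists, or of whatever else differed with the batch, in the miR-204 values was not tested. The ratio of the Mir204 arms was 5.91 ± 0.13 in batch 2 and 6.03 ± 0.25 in batches 1 and 3 (log2, SD, n = 16 each; permutation p = 0.129, adjusted over 10 tests 0.43). The ratio of miR-211-5p to miR-204-5p was -9.62 ± 0.39 in batch 2 and -9.23 ± 0.61 in batches 1 and 3, a difference of -0.39 (permutation p = 0.0407) that failed the adjustment over 10 tests (0.407).

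The chow mice of batch 4 were set against those of batch 2, where only the batch differs by label. No member passed, at log2 fold changes of -0.13 ± 0.35 (SE) for miR-204-5p, -0.03 ± 0.31 for miR-204-3p and -0.17 ± 0.30 for miR-211-5p (edgeR adjusted p = 0.779, 0.949 and 0.676), while 331 of 598 tested miRNAs were called (55.4%; 26.9% higher and 28.4% lower in batch 4). Around them 7 of 9 neuronal miRNAs were higher in batch 4 (median 1.00), 5 of 8 Htr2c-hosted miRNAs were higher and 1 lower (median 0.59), 4 of 5 miR-34/449 miRNAs were lower (median -1.17) and 6 of 9 pituitary and epithelial miRNAs were lower (median -0.90), against a median of -0.02 over all tested miRNAs. The sign for miR-204-3p turned under RLE scaling, upper-quartile scaling and DESeq2. The batch 4 libraries were far apart. The SD of miR-204-5p there was 0.78 (log2, n = 8), against 0.08 (n = 4) in RCD of batch 2, and 11 of the 407 miRNAs of at least 10 CPM varied more. Over 18 alternatives the fold change of miR-204-5p ran from -0.47, without RCD 2, to -0.036, and it passed under none of them. RCD 2 holds the highest miR-204-5p level, so the value without it is a description and no p is given.

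RCD 2 and RCD 5 carried this spread. Their miR-204-5p levels were 6815 and 4018 CPM, while the other 6 libraries of the batch lay between 1463 and 2541 CPM (median 1718). miR-204-3p was at 98.5 CPM in RCD 2 and 61.3 CPM in RCD 5, against 22.5 to 38.5 CPM in the other 6 (median 32.2). miR-211-5p was at 2.65 CPM in RCD 2 and 2.49 CPM in RCD 5, inside the range of the other 6 (1.88 to 5.44 CPM), so the paralogue was not high there. The pair was picked by these values, and differences that rest on leaving both out are given as a description with no test. The mean log2 difference in miR-204-5p between batch 4 and batch 2 was -0.31 with all 8 libraries and -0.69 with the other 6. For miR-204-3p it was -0.14 with all 8 and -0.46 with the other 6, and for miR-211-5p -0.12 and -0.07.

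The miRNAs that stood out with miR-204 in these 2 libraries included many, and not all, of the Htr2c and miR-34/449 lists. In RCD 2, measured as log2 CPM above the mean of the other 6 libraries, the leading miRNAs of 407 were miR-448-3p (3.22), miR-1298-5p (3.07), miR-34b-5p (2.50), miR-34c-5p (2.34), miR-34b-3p (2.12) and miR-34c-3p (2.06), followed by miR-204-5p (1.92) and miR-204-3p (1.64). In RCD 5 miR-448-3p (2.46) and miR-1298-5p (2.30) again led, miR-187-3p, which is in neither list, was 3rd (1.78), and miR-204-5p (1.16) was 6th and miR-204-3p (0.97) 9th. Further Htr2c-hosted miRNAs lay above the range of the other 6 in both libraries. With RCD 2 first, miR-1912-3p was at 2.80 and 2.18 and miR-1264-3p at 1.11 and 0.66. miR-1264-5p was at 0.72 and 0.63 and miR-1298-3p at 0.43 and 0.60. Some members of the lists were not high in both. In RCD 2 and RCD 5 in turn, miR-448-5p was at -0.80 and 0.12, miR-764-5p at -0.19 and 0.14 and miR-449a-5p at -0.30 and 0.40. The ciliated-cell list summed to 2019 CPM in RCD 2 and 983 CPM in RCD 5, with a median of 464 CPM over batch 4, and 2 of its 9 miRNAs, miR-449b and miR-449c-3p, were at 0 in every library. The Htr2c-hosted list summed to 5087 CPM in RCD 2 and 3146 CPM in RCD 5, with a median of 982 CPM over the batch, and miR-1298-5p alone gave 4328 CPM in RCD 2 and 2540 CPM in RCD 5. The neuronal list was not apart, at 348000 and 335800 CPM in the same 2 libraries against a batch median of 348400 CPM. The pituitary list summed to 36450 and 30640 CPM (median 37620), the vascular list to 24790 and 30760 CPM (median 24910) and the erythroid list to 773 and 764 CPM (median 768). The pineal and retinal list summed to 89.8 and 114 CPM (median 110). The muscle list summed to 261 and 338 CPM (median 202), and its miR-1a-3p was at 239 CPM in RCD 2 and 307 CPM in RCD 5, above the 139 to 183 CPM of the other 6. The rest of the muscle list was not high in both. On the log2 scale used above, with RCD 2 first, miR-133a-3p was at 0.06 and 0.82. miR-133b-3p was at -1.60 and 0.61 and miR-206-3p at -0.68 and -1.19. The part of any of these cell types in the miR-204 values was not tested.

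**Figure D4:**
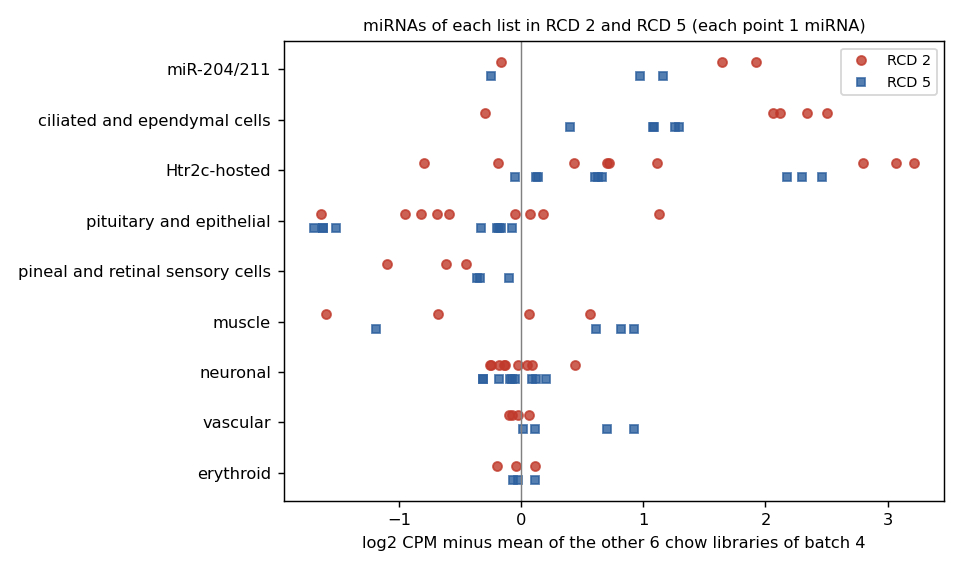
Log2 CPM of each miRNA of the 3 members and of 8 marker lists in RCD 2 and RCD 5, minus its mean in the other 6 RCD libraries of batch 4. The points of miR-204-5p and miR-204-3p lie at 1.92 and 1.64 in RCD 2 and at 1.16 and 0.97 in RCD 5, among the ciliated and Htr2c-hosted miRNAs, and those of miR-211-5p lie below 0 (-0.17 and -0.25).

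Likeness between miRNAs was measured as Pearson's r of log2 CPM after subtracting the mean of each group within each batch, taken over the libraries in use. It describes 44 libraries, each with a depth and handling shared by all its miRNAs, and no p is attached. miR-204-5p and miR-204-3p, cut from 1 hairpin, had r = 0.84, and 0.57 over the 42 libraries without RCD 2 and RCD 5. miR-204-5p and miR-211-5p, which share the seed and not the locus, had r = -0.01, and 0.14 over the 42 libraries. Counting error in miR-211-5p would hide much of any likeness there. Of 406 other miRNAs of at least 10 CPM, the 5 most like miR-204-5p were miR-1298-5p (r = 0.85), miR-204-3p, miR-448-3p (0.82), miR-34c-5p (0.69) and miR-34b-5p (0.64). These values rested on RCD 2 and RCD 5, in part for miR-204-3p (0.57 without them) and largely for the rest. Over the other 42 libraries miR-1298-5p had r = 0.29, miR-448-3p 0.23, miR-34c-5p -0.23 and miR-34b-5p -0.07. The 5 most like miR-204-5p were then miR-125a-5p (0.60), miR-204-3p, miR-129-1-3p (0.52), miR-700-3p (0.52) and miR-149-5p (0.49). Without AM132 5, AM132 6 and AM608 5, the leading r values for miR-204-5p were 0.86, 0.85 and 0.82 for the same first 3.

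miR-204-3p was most like miR-204-5p, then miR-1298-5p (0.78), miR-448-3p (0.64), miR-24-1-5p (0.62) and miR-1264-3p (0.61). Over the 42 libraries without RCD 2 and RCD 5, these were 0.40 for miR-1298-5p, 0.03 for miR-448-3p, 0.54 for miR-24-1-5p and 0.29 for miR-1264-3p, and miR-342-5p (0.67), miR-340-3p (0.63) and miR-24-2-5p (0.60) came before miR-204-5p. The highest r values of miR-211-5p were with other miRNAs, miR-150-5p (0.51), miR-26b-5p (0.50), miR-181a-5p (0.49), miR-32-5p (0.47) and miR-592-5p (0.46). These are the top of 407 candidates. Counting error (SD 0.42 beside 0.48 between libraries) limits any r of miR-211-5p, so they do not establish partners. The summed Htr2c-hosted list had r = 0.86 with miR-204-5p, and 0.30 without RCD 2 and RCD 5. The summed ciliated list had 0.69 with all libraries and -0.21 without those 2. The pituitary, pineal and retinal, muscle, neuronal, vascular and erythroid lists had r between -0.07 and 0.2 over the 44 libraries.

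**Figure D5:**
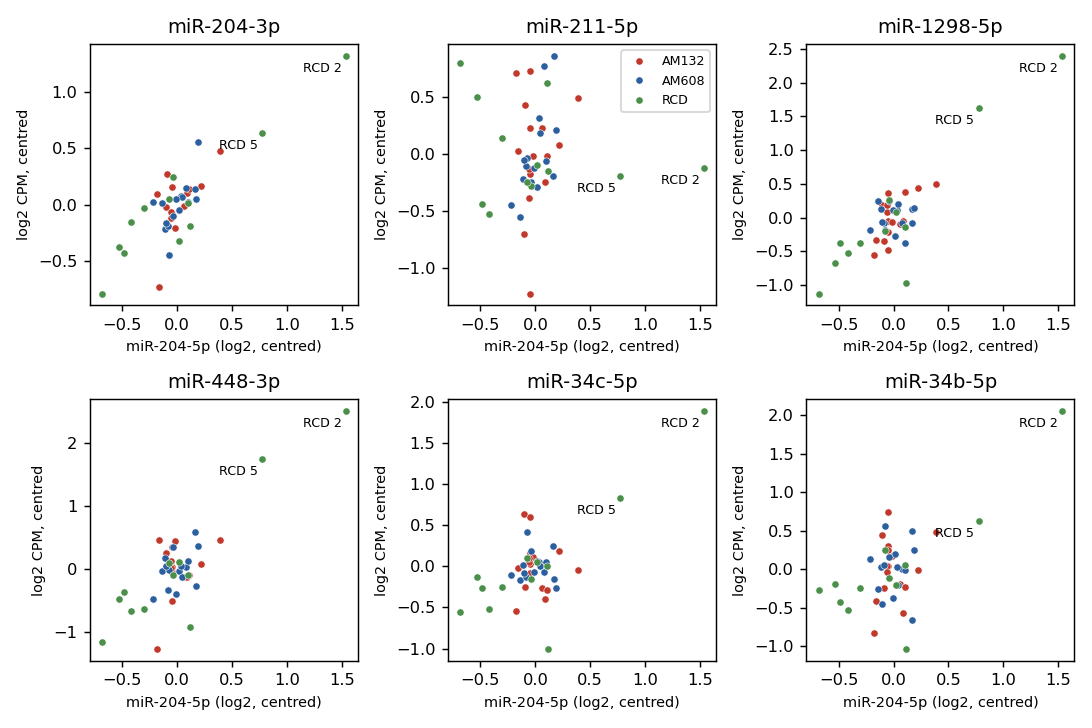
Log2 CPM of 6 miRNAs, centred on the mean of each group within each batch, against that of miR-204-5p, with 1 point per library (n = 44). RCD 2 and RCD 5 lie far to the upper right in the panels of miR-204-3p, miR-1298-5p, miR-448-3p and the miR-34 arms. Without them r falls to 0.57 for miR-204-3p, 0.29 for miR-1298-5p and 0.23 for miR-448-3p and is below 0 for both miR-34 arms, and miR-211-5p shows no slope (r = -0.01).

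Of the 5 miRNAs most like miR-204-5p over the 44 libraries, miR-204-3p had a fold change near its own in batch 2 against batches 1 and 3 (0.50 beside 0.40). The other 4 had fold changes of another size or sign there. Neither Mir204 arm passed in chow mice of batch 4 against batch 2, where miR-204-3p kept its sign under 7 of 18 alternatives. In batch 2 against batches 1 and 3, where miR-204-5p was higher by 0.40 on the log2 scale, miR-34c-5p was higher by 3.25 ± 0.11 (SE, edgeR adjusted p = 1.43e-22) and miR-34b-5p by 3.43 ± 0.13 (adjusted p = 8.37e-21). miR-448-3p was higher by 0.95 ± 0.12 (edgeR adjusted p = 2.67e-08), and miR-1298-5p fell by 0.27 on that scale (SE 0.10, edgeR adjusted p = 0.0137). In chow mice of batch 4 against batch 2, miR-1298-5p was higher by 1.90 ± 0.65 (edgeR adjusted p = 0.0218), and miR-34c-5p and miR-34b-5p fell by 1.21 and 1.40 (edgeR adjusted p = 0.0205 and 0.0124). miR-448-3p, at 0.76 ± 0.66, did not pass (edgeR adjusted p = 0.353). These values too include RCD 2 and RCD 5. As a description with no test, the mean log2 difference between batch 4 and batch 2 was 1.34 for miR-1298-5p with all 8 libraries and 0.67 with the other 6. It was 0.13 and -0.58 for miR-448-3p, -1.48 and -1.94 for miR-34c-5p, and -1.67 and -2.12 for miR-34b-5p. In batch 2 against batches 1 and 3, the 4 miRNAs that were high with miR-204-5p in RCD 2 and RCD 5 thus had fold changes of another size or sign. miR-34c-5p and miR-34b-5p were close to each other in both comparisons. Between the chow batches, with the other 6 libraries, miR-448-3p (-0.58) was near miR-204-5p (-0.69). Differences between miRNAs were not tested.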

How the data were processed

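Small RNA libraries were made from 200 ng of hypothalamus RNA with a NEBNext kit and read on a NextSeq 500, per the labels' protocols. The authors deposited a table of raw counts per mature miRNA, and its values are unnormalised whole-number counts. FastQC is named in the submitters' processing notes, and trimming, aligner, miRNA release and strand handling are not given in the sources used here. Each of the 44 columns was tied to 1 library through its group and number, and the table had 0 columns of other samples. A second deposited table, of tRNA fragments, was not used here.

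Models were fitted in edgeR 4.0.16 under R 4.3.3 (filterByExpr with a minimum count of 10 and a minimum total of 15, TMM scaling, quasi-likelihood F test, Benjamini-Hochberg adjustment over all tested miRNAs at 0.05) with limma 3.58.1 loaded. The SE of a fold change is its size divided by the square root of F. The AM132 and AM608 fit used 32 libraries and a batch term, the comparisons with RCD used the 20 libraries of batch 2, and the comparison of RCD batches used 12. Log2 CPM used a prior count of 2. Ratios within a library used log2 counts plus 0.5 and 2-sided permutation tests, exact within a batch and otherwise with 100000 resamples within strata. Groups set against RCD share their control libraries. Sequences came from RefSeq (GRCm38.p6) and host genes from GENCODE vM21.

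The members, the marker lists and the tests were chosen with earlier results of these data known. The rule for named miRNAs took the 3 members, miRNAs with the same seed, the 5 most like each member, and counts and medians for each marker list. The target miR-132-3p, miR-34c-3p and the leading miRNAs of RCD 2 and RCD 5 were named after their values were seen. Alternatives were RLE and upper-quartile scaling, DESeq2 1.42.0, no filter, a filter at 10 CPM, other designs, each batch alone and left-out libraries. The fits were tested on simulated data of the same design. For 559 miRNAs changes of 1 (log2) were recovered for 98% of changed miRNAs between AM132 and AM608, and changes of 0.5 for 91%. For 599 miRNAs, AM608 against RCD recovered 90% and 53%. These simulations changed 98 to 100 miRNAs at each size at once, where the data gave 2 calls and 0 calls. With so many changed the adjusted threshold is easier to pass, and no batch differences were simulated. The shares therefore do not give the chance of calling a single changed member. The most similar libraries of a group, AM132 7 and AM132 11, still differed by more than sampling noise (chi-square over its degrees of freedom, 5.02).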

Additional observations from a re-analysis of the deposited data

Results flagged for a closer look

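Of 40 sets of values (3 levels and 2 ratios in each of 8 groups within a batch) 3 held a library that stood apart from the others by Dixon's criterion, where chance gives about 1 in 20, or 2. The log2 ratio of miR-204-5p to miR-204-3p was 5.56 in AM132 6, the lowest of 8 AM132 libraries in batch 2, with the nearest at 5.89. The log2 ratio of miR-211-5p to miR-204-5p was -9.19 in RCD 11, the highest of the 4 RCD libraries in batch 2, with the nearest at -9.92. The same ratio was -9.19 in AM608 16, the lowest of the 4 AM608 libraries in batch 3, with the nearest at -9.05, and the other 3 libraries lay between -9.05 and -9.03. RCD 2 did not stand apart by the criterion for miR-204-5p, since RCD 5 lay between it and the rest.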

How the results depend on the processing

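Of 345 alternative values 306 kept their direction and their side of the threshold. The higher miR-204-5p and miR-204-3p in batch 2 than in batches 1 and 3 passed under each of 10 alternatives, at 0.27 to 0.52 and 0.39 to 0.59, and miR-204-5p did not pass between AM132 and AM608 under any of 13 alternatives (edgeR or DESeq2 adjusted p 0.442 to 1). The values below turned sign, moved a count by over 1.5 times or, for 1 ratio, passed the threshold, and the cause was not tested.

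The count of 2 calls between AM132 and AM608 was 1 under upper-quartile scaling, without a filter, without AM132 5, AM132 6 and AM608 5, and in batch 2 alone, and 0 without a batch term and in batches 1 and 3 alone. Against RCD, AM132 gave 0 to 1 calls with a library left out, the 1 arising without AM132 6, and 1 without AM132 5, AM132 6 and AM608 5. miR-211-5p turned to 0.26 between AM132 and AM608 in batch 2 alone, and to 0.31 between batches in AM132 libraries alone. In AM608 against RCD, fitting all 44 libraries gave 0.031 for miR-204-5p and 0.10 for miR-211-5p, and leaving out a library gave -0.057 to 0.013 and -0.17 to 0.24. In AM132 against RCD, miR-204-3p ran from -0.0031 to 0.17 with a library left out. In RCD of batch 4 against batch 2, miR-204-3p was 0.01 under RLE scaling, 0.042 under upper-quartile scaling, 0.012 by DESeq2 and 0.0024 with all 44 libraries, and -0.30 to 0.07 with a library left out. There miR-211-5p ran from -0.36 to 0.16.

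For the log2 ratio of the Mir204 arms, AM132 minus AM608 was 0.011 without AM132 6, 0.013 without the 3 libraries above, 0.0014 in batch 1 and 0.012 in batch 2. For the ratio of miR-211-5p to miR-204-5p it was -0.018 without the 3 libraries, -0.10 in batch 1 and -0.37 in batch 3. In AM608 against RCD this ratio was 0.019 without AM608 5, and -0.11 to 0.16 with a single library left out. In AM132 against RCD it ran from 0.25 to 0.53, the highest without RCD 11, where the unadjusted permutation p was under 0.05. In RCD of batch 4 against batch 2 it ran from -0.049 to 0.41. Leaving out each RCD library of batch 4 was added after the data were seen. miR-211-5p gave no value under the 10 CPM filter.

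Whether the replicate numbers pair the libraries is not labelled and was not tested. Of 16 AM132 and AM608 pairs, 11 had a correlation of deviations over 0.1 (-0.36 to 0.56), and 6 correlated best with their own number. With the replicate block miR-204-5p was -0.16 between AM132 and AM608 (edgeR adjusted p = 0.52), and the counts of calls were 2 between AM132 and AM608 and 0 in each comparison with RCD. No block could be fitted between batches, which share no numbers. Depth limits miR-211-5p, at 3 to 28 counts per library.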
